A study of Macaca fascicularis with 5 samples.

Results

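The genes described here are 9 genes of the myelin that mature oligodendrocytes make, namely MBP, MOBP, CLDN11, MAL, MOG, MAG, OPALIN, CNP and ERMN. They were taken by symbol from a table of estimated transcript counts of the monkey dorsal lateral geniculate nucleus (dLGN), the thalamic relay between the eyes and the visual cortex. The 9 symbols cover 38 of the 62655 transcripts and 9 of the 20576 symbols of the table. The deprived group held 2 libraries, Deprivated-316 and Deprivated-326, each from the left dLGN of a Macaca fascicularis (cynomolgus monkey) whose left eye had been sutured, so that the tissue lay on the side of the closed eye. The control group held 3 libraries of untreated monkeys, named Control-307, then Control-317 and Control-331. All 5 animals are labelled as 3 months old. In the 2 deprived animals the eye is labelled as closed from 1 month of age, while the methods of the study place collection 3 months after the suture. There was 1 library per animal, so the p-values rest on the spread between libraries, in which animal and tissue sample cannot be told apart. For the gene and transcript tests, that spread is estimated with information shared over all genes or transcripts.

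Oligodendrocytes wrap axons in many layers of their own membrane, which speeds conduction and feeds the axon. In compact myelin the cytoplasmic faces are held together by basic proteins such as MBP, while the inner and paranodal loops keep cytoplasm and hold enzymes and adhesion proteins. The optic tract and the thalamic radiations that enter and leave the dLGN are myelinated during infancy, which in monkeys overlaps with the period in which closing an eye alters the visual pathway.

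Some facts of the libraries bear on every value below. The deprived libraries held 7607859 and 7391844 estimated counts, and the control libraries between 9424975 and 12966019. Control-317 stood apart: over 14319 genes, which are not independent replicates, Pearson's r of its log2 CPM (counts relative to library size) was 0.849 with Control-307 and 0.872 with Control-331, against 0.952 between those. Control-317 is titled as left like both deprived libraries, and Control-307 and Control-331 as right, although the descriptions say that both sides of the control animals were combined. Of the 10 ways to divide 5 libraries into 2 and 3, only the one that sets Control-317 with Deprivated-326 matched the group means printed by the study for all 310 transcripts that could be read, within a relative difference of 0.001 or an absolute one of 0.01, and the division by the labels matched 20 of them. Groups here follow the deposited labels, and the fold changes of the 9 myelin genes without Control-317 and by that other division are given after them. Markers of relay neurons and of striatal neurons differed between the libraries as well. For SLC17A6, a vesicular glutamate transporter of relay neurons, the deprived libraries had 134 and 410 CPM and the control libraries 16.5, 679 and 68.6 CPM, always in the order Control-307, then Control-317, then Control-331. For PDE10A, a phosphodiesterase of striatal neurons, the values were 1016 and 906 CPM in the deprived libraries against 3868, 190 and 3456 CPM in the control libraries in that order. SLC17A6 was lowest in Control-307, where PDE10A was highest, and highest in Control-317, where PDE10A was lowest. The 10 relay markers were not of 1 pattern: 5 were lowest in Control-307 and 3 in Control-317, among them PRKCD, a kinase, with 37.1 and 15.3 CPM in the deprived libraries against 51.5, 10.1 and 50.7 CPM in the control libraries. In such bulk tissue, fewer oligodendrocytes and less myelin RNA per oligodendrocyte cannot be told apart.

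All 9 myelin genes were on the lower side in the deprived dLGN, with log2 fold changes of -0.91 to -0.45 and a median of -0.75, and none of them passed the test. The fold changes are deprived over control, from edgeR's quasi-likelihood fit of gene totals, which are rounded counts summed over the transcripts of a symbol. The median over all 14319 genes tested was -0.06, and 55.1% of these genes were below 0. Adjusted p-values, taken over all genes, ran from 0.481 to 0.891 for the 9 genes in edgeR. In counts simulated for these 5 libraries, the same test called 0 of 50 genes set to a log2 fold change of 1 in size. At a size of 2 it called 18 of 50. The fold changes of the 9 genes were smaller than 1 in size, so the missing calls tell little about them. Of all genes, 0% were called in either direction by the quasi-likelihood test of edgeR at an adjusted p under 0.05, with 1389 at an unadjusted p under 0.05. The exact test of edgeR called 226 genes (1.38% higher, 0.203% lower) and DESeq2 called 380 (1.93% higher, 0.625% lower), and both called 0 of the 9. At an unadjusted p under 0.05 the quasi-likelihood test had 2 of the 9 genes, MOG and CNP, on the lower side and 0 on the higher side, where 4.05% and 5.65% of all genes were. The deprived and control libraries did not overlap for 3 of the 9, MOG, CNP and CLDN11, and 15.5% of all genes were lower without overlap.

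**Figure D1:**
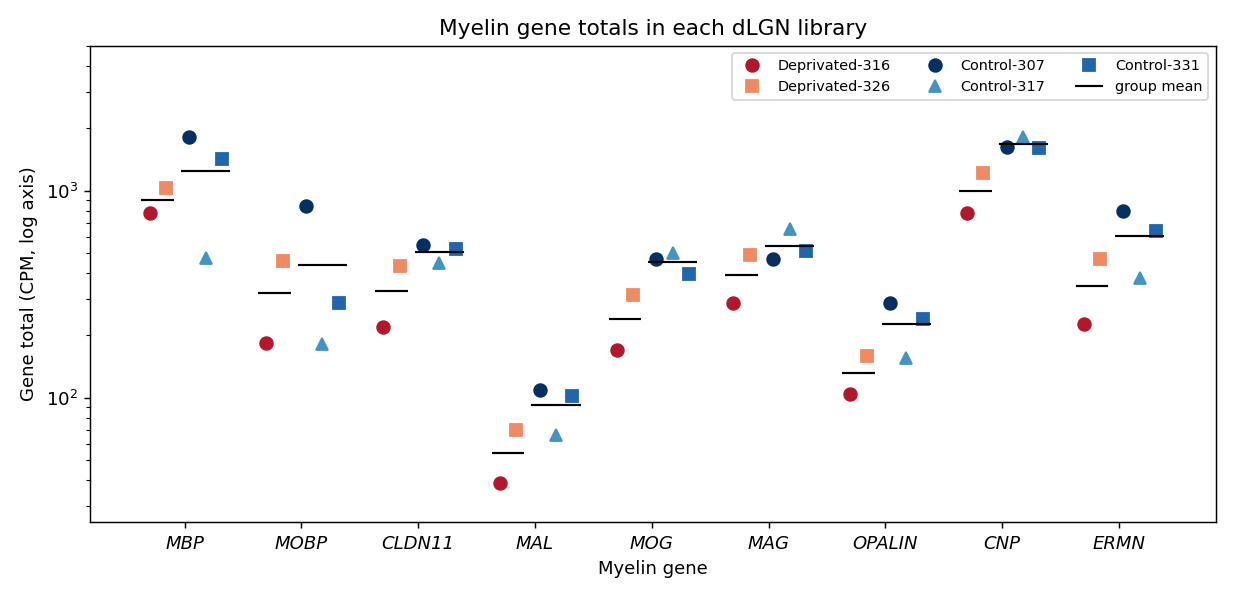
Gene totals in CPM (log axis) of the 9 myelin genes, with 1 point per library, deprived libraries left of control libraries and black bars for group means. Deprivated-316 is the lowest point for 7 genes, and Control-317 is the lowest for MBP and MOBP.

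Deprivated-316 stood lowest among the libraries. It had the lowest CPM of all libraries for 7 of the 9 genes, the exceptions being MBP and MOBP, whereas 21.6% of all genes were lowest there. Control-317 was the lowest library for both exceptions, and for 29.6% of all genes. Control-307 was the highest library for 6 of the 9 (21.6% of all genes) and Control-317 for MOG, MAG and CNP (30.4% of all genes). Deprivated-326 exceeded Deprivated-316 for all 9, by 1.33-fold to 2.48-fold, and lay below Control-317 for 4 of them. Leaving out Deprivated-316 brought the median of the 9 genes to -0.36, and leaving out Deprivated-326 brought it to -1.19. In counts, the 9 genes together made up 0.273% and 0.460% of all estimated counts in the deprived libraries, against 0.714%, 0.450% and 0.593% in the control libraries. Deprivated-326 and Control-317 were thus close to each other in this share, and the groups overlapped (exact permutation test, two-sided p = 0.4, where the smallest possible is 0.2).

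Per length of transcript, CNP and MBP were the most abundant of the 9 genes. CNP averaged 320.8 ± 99.8 FPKM (fragments scaled by transcript length and library size) and MBP 244 ± 120 FPKM over the 5 libraries (SD). CLDN11, MAG, MOG and MOBP followed with means of 104 to 124 FPKM, then ERMN with 80.5, MAL with 44.9 and OPALIN with 34.1 FPKM. Only the last steps held in each library: MOBP was above ERMN, ERMN above MAL and MAL above OPALIN in 5 of 5 libraries. CNP was above MBP and MBP above CLDN11 in 4 of 5, CLDN11 above MAG in 3, MAG above MOG in 4 and MOG above MOBP in 2, so that the order within CLDN11, MAG, MOG and MOBP did not exceed the spread. Among all symbols ranked by FPKM, CNP was at rank 114 and 40 in the deprived libraries and 37, 27 and 37 in Control-307, in Control-317 and in Control-331.

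MBP and MOBP are basic proteins that bind the cytoplasmic faces of compact myelin together, and their messengers are known to travel into the oligodendrocyte processes in rodents. MBP had 776 and 1033 CPM in the deprived libraries against 1816, 475 and 1424 CPM in the control libraries. Both deprived values fell between Control-317 and the other control libraries. The log2 fold change was -0.45 with a standard error (SE) of 0.58 (edgeR adjusted p = 0.84), and without Control-317 it was -0.84 with an SE of 0.20 (edgeR adjusted p = 0.0629). Without Control-307 it was -0.07 (edgeR adjusted p = 0.99). MOBP had 184 and 456 CPM in the deprived libraries against 845, 182 and 286 CPM in the control libraries in the same order. Control-307 alone lay above both deprived libraries for MOBP. Its log2 fold change was -0.45 with an SE of 0.76 (edgeR adjusted p = 0.891), and it turned to 0.45 without Control-307 and to 0.06 without Deprivated-316.

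CLDN11 and MAL are membrane proteins with 4 spans. CLDN11 forms the tight junctions between myelin layers, and MAL is a proteolipid that takes part in sorting proteins to the myelin membrane. CLDN11 had 219 and 434 CPM in the deprived libraries against 548, 448 and 521 CPM in the control libraries. The groups did not overlap, but Deprivated-326 came close to Control-317, and the log2 fold change was -0.63 with an SE of 0.34 (edgeR adjusted p = 0.591). MAL had 38.6 and 69.9 CPM in the deprived libraries against 109, 65.6 and 102 CPM in the control libraries. Deprivated-326 lay above Control-317 here, and the log2 fold change was -0.76 with an SE of 0.37 (edgeR adjusted p = 0.565).

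MOG, MAG and OPALIN sit on the surface of the sheath and its loops. MOG is an immunoglobulin-like protein of the outermost layer, MAG a sialic acid-binding adhesion protein that faces the axon and also inhibits neurite growth, and OPALIN a glycoprotein of the paranodal and inner loops. MOG had 169 and 312 CPM in the deprived libraries against 465, 501 and 394 CPM in the control libraries. It had the most negative fold change of the 9 genes and no overlap, with a log2 fold change of -0.91 and an SE of 0.33 (edgeR unadjusted p = 0.0344, adjusted p = 0.481). MAG had 288 and 491 CPM in the deprived libraries against 467, 653 and 509 CPM in the control libraries. Deprivated-326 was within the control range, and the log2 fold change was -0.48 with an SE of 0.32 (edgeR adjusted p = 0.664). OPALIN had 104 and 160 CPM in the deprived libraries, against 287, 155 and 241 CPM in the control libraries. Deprivated-326 and Control-317 were nearly level for OPALIN, and the log2 fold change was -0.79 with an SE of 0.35 (edgeR adjusted p = 0.543).

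CNP and ERMN act on the cytoskeleton of the non-compact parts. CNP, a phosphodiesterase that binds tubulin and the membrane, keeps cytoplasmic channels open in the sheath, and ERMN is an actin-binding protein of late differentiation. CNP had 784 and 1214 CPM in the deprived libraries against 1629, 1816 and 1609 CPM in the control libraries. The control libraries were close together and above both deprived libraries, and the log2 fold change was -0.75 with an SE of 0.27 (edgeR unadjusted p = 0.036, adjusted p = 0.487). ERMN had 227 and 468 CPM in the deprived libraries against 794, 378 and 635 CPM in the control libraries. Control-317 fell between the deprived libraries for ERMN, and the log2 fold change was -0.79 with an SE of 0.46 (edgeR adjusted p = 0.619).

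**Figure D2:**
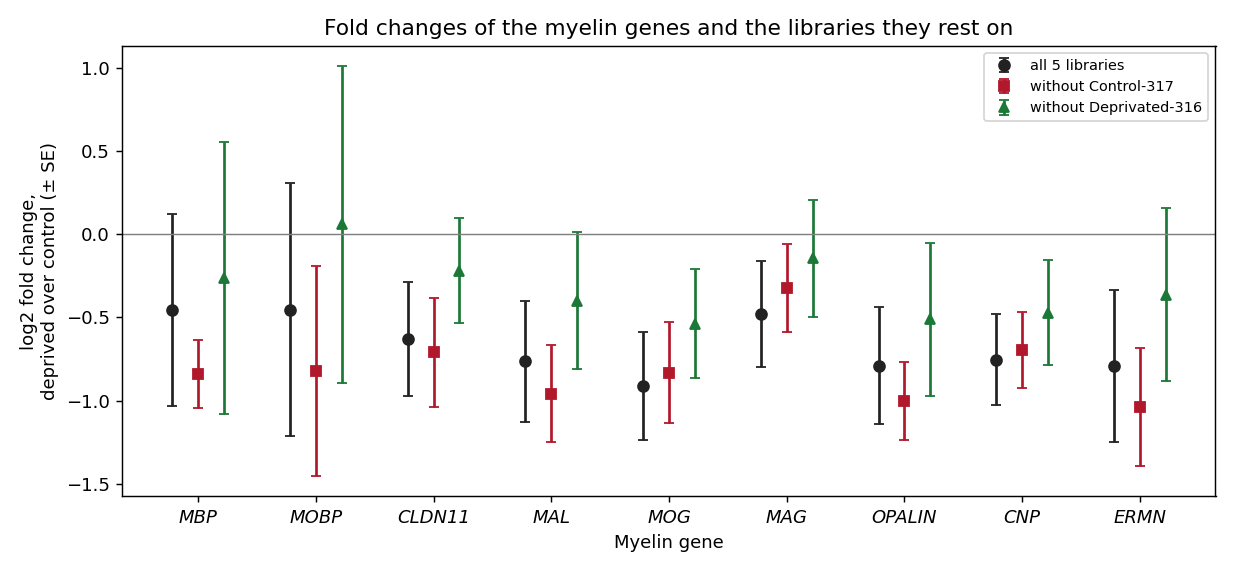
Log2 fold changes (deprived over control, with SE) of the 9 myelin genes from edgeR's quasi-likelihood fit with all 5 libraries, without Control-317 and without Deprivated-316. With all libraries the values run from -0.91 to -0.45, and without Deprivated-316 they lie nearer to 0, with MOBP at 0.06.

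Without Control-317, the 9 genes kept their direction with a median of -0.83, and condition was then confounded with the side in the titles. The log2 fold changes were -0.84 for MBP, -0.82 for MOBP, -0.71 for CLDN11, -0.96 for MAL, -0.83 for MOG, -0.32 for MAG, -1.002 for OPALIN, -0.70 for CNP and -1.04 for ERMN. In that fit edgeR's quasi-likelihood test called 0 of the 9 genes, with 6 at an unadjusted p under 0.05 and adjusted p-values of 0.0597 to 0.451, while it called 3.68% of all genes as lower and 15.0% were lower at an unadjusted p under 0.05. DESeq2 on the same 4 libraries, a fit chosen after the values were seen, called 6 of the 9 as lower (MBP, MOG, CNP, MAL, OPALIN and ERMN), where 5.78% of all genes were called lower. By the division that matched the printed means, 4 of the 9 genes had positive and 5 had negative log2 fold changes of Control-317 and Deprivated-326 over the others, with a median of -0.30 and edgeR adjusted p-values of 0.725 to 0.984. MAG was at 0.44, MOG at 0.25, CNP at 0.18 and CLDN11 at 0.038, and MAL was at -0.30, ERMN at -0.38, OPALIN at -0.42, MOBP at -0.46 and MBP at -0.83.

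The 9 genes did not keep the same proportions in Control-317. As a share of their summed FPKM, MBP made up 25.4% and 20.9% in the deprived libraries against 25.2%, 9.1% and 22.6% in the control libraries. MOBP likewise had 9.24% and 9.31% in the deprived libraries and 10.5%, 6.25% and 8.48% in the control libraries. CNP took 26.4% and 25.3% in the deprived libraries and 23.2%, 35.7% and 26.1% in the control libraries. Control-317 thus had the lowest share of MBP and MOBP and the highest of CNP. For each FPKM of MAG there were 2.39 and 1.86 FPKM of MBP in the deprived libraries, and 3.45 in Control-307 but 0.651 in Control-317.

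**Figure D3:**
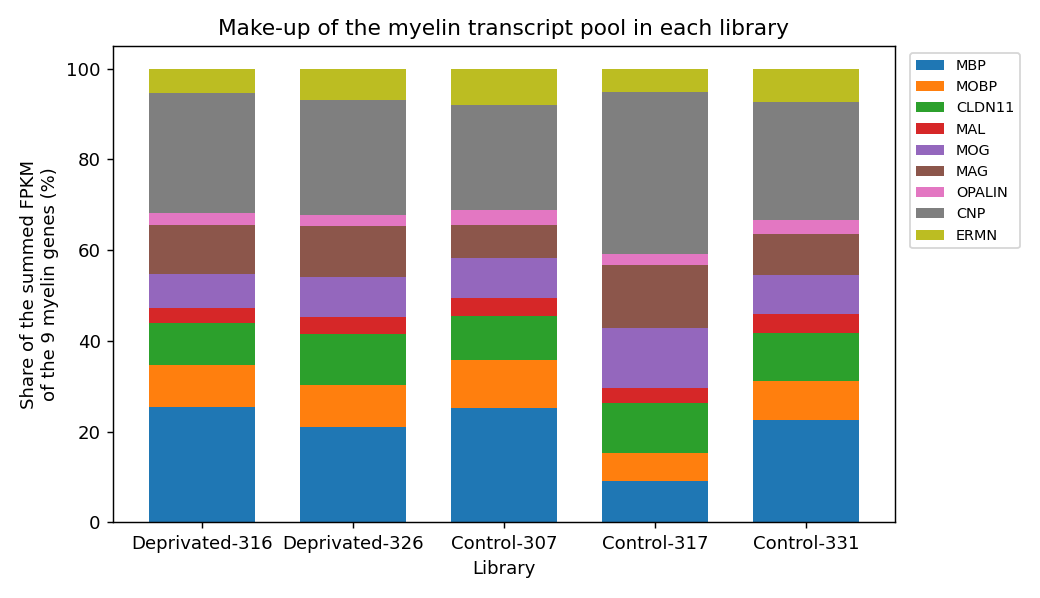
Share (%) of each of the 9 genes in their summed FPKM, with 1 stacked bar per library. MBP is at 9.1% in Control-317 and at 20.9% to 25.4% in the other libraries, while CNP is at 35.7% in Control-317.

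Between the deprived and the control group no share differed beyond the spread. With all libraries the largest mean difference was that of MBP, which held 23.1% ± 3.2 in the deprived libraries (SD, n = 2) and 18.9% ± 8.6 in the control libraries (SD, n = 3; exact permutation test, two-sided p = 0.8). Without Control-317 the difference of MBP was -0.73 percentage points instead of 4.19, and the largest was that of MAG, at 2.77. Over the 9 shares the exact p-values were 0.4 to 1, all 1 after Benjamini-Hochberg adjustment, and the smallest possible p is 0.2. Within the control group, 6 of the 9 genes were lower in Control-317 than in both other libraries, where 42.9% of all genes were. They were MBP, MOBP, ERMN, OPALIN, MAL and CLDN11, from 0.295-fold for MBP to 0.837-fold for CLDN11 relative to the mean of Control-307 and Control-331 on the log2 scale. MOG, MAG and CNP were higher there than in both, by 1.12-fold to 1.34-fold.

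Of the 38 transcripts of the 9 genes, 5 were listed at 0 in every library, 29 passed the filter on low counts and 25 reached 10 CPM in a library. CLDN11, MAL and ERMN have 1 transcript each in the table. Of the 29 tested transcripts 28 were on the lower side, and their log2 fold changes had a median of -0.80, against -0.05 over all 33469 transcripts tested. None passed edgeR's quasi-likelihood test (0 of 29, with 4 at an unadjusted p under 0.05 on the lower side, where 2.99% of all transcripts were), as over all transcripts (0%, with 2145 at an unadjusted p under 0.05). Their edgeR adjusted p-values were 0.564 or above. DESeq2 called 1 of them, the unnumbered MOBP transcript, and 3.28% of all transcripts. StringTie divides reads among overlapping variants, so values of single variants also carry the error of that division.

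The variants of MBP did not keep equal shares. MBP variant X1 had 494 and 720 CPM in the deprived libraries against 1016, 230 and 661 CPM in the control libraries, with a log2 fold change of -0.07 and an SE of 0.65 (edgeR adjusted p = 1.00). MBP variant X2 had 175 and 176 CPM in the deprived libraries against 533, 154 and 469 CPM in the control libraries, with a log2 fold change of -1.13 and an SE of 0.58 (edgeR adjusted p = 0.806). MBP variant X5 was at 102 and 123 CPM in the deprived libraries and at 306, 94.7 and 315 CPM in the control libraries. X1 therefore made up 64.0% and 70.6% of the MBP total in the deprived libraries and 54.8%, 48.1% and 45.8% in the control libraries. These shares did not overlap, and the difference of 17.8 percentage points had the smallest possible p (exact permutation test, two-sided p = 0.2, adjusted p = 0.4 over 6 genes).

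Shares of the leading variant also did not overlap for OPALIN and MOG, which with MBP made 3 of 6 genes, against 20.7% of the 9127 tested genes with more than 1 transcript. OPALIN variant X2 made up 76.2% and 74.7% of the total in the deprived libraries and 64.4%, 66.0% and 74.3% in the control libraries, and Control-331 was nearly level with the deprived libraries. The leading MOG transcript made up 87.9% and 90.5% in the deprived libraries and 91.1%, 93.5% and 91.8% in the control libraries. Both differences had an exact permutation p = 0.2 (two-sided, adjusted p = 0.4). For MAG, CNP and MOBP the leading shares overlapped.

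**Figure D4:**
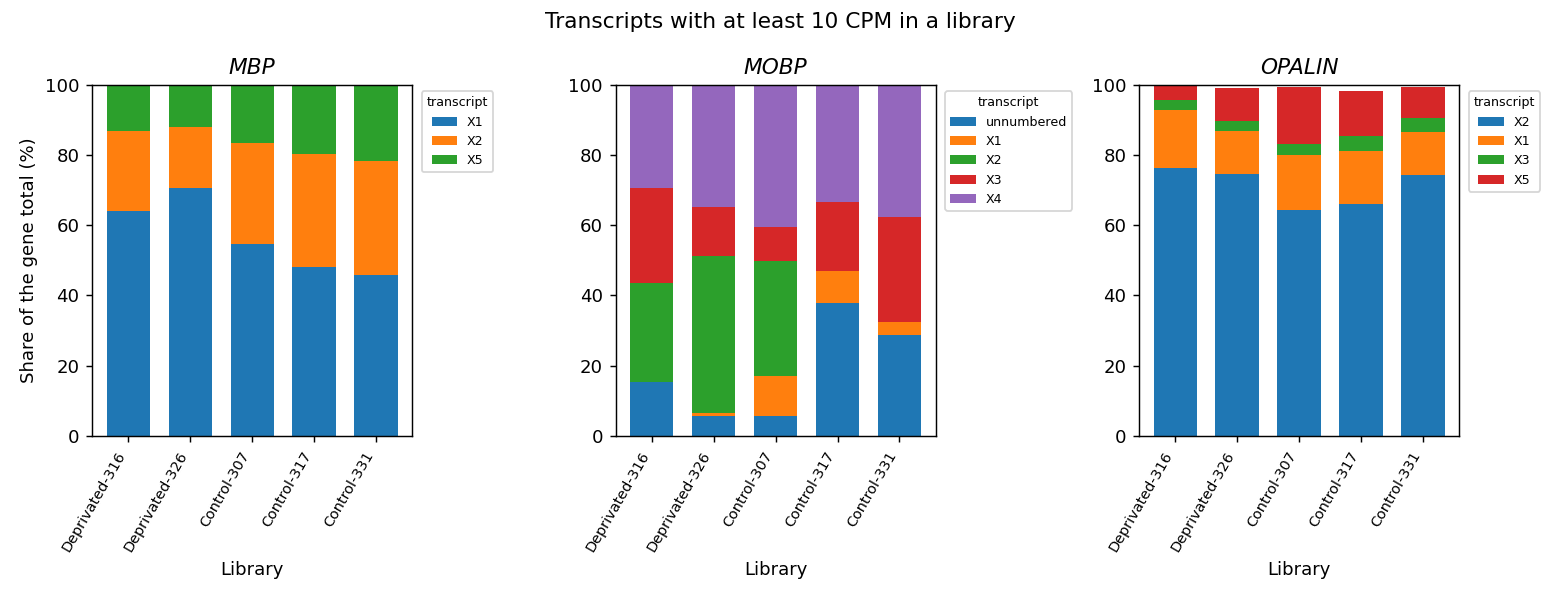
Share (%) of the gene total of MBP, MOBP and OPALIN that each transcript with at least 10 CPM in a library made up, per library. MBP variant X1 holds 64.0% and 70.6% in the deprived libraries, against 45.8% to 54.8% in the control libraries, and MOBP variant X2 is at 0 in Control-317 and Control-331.

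The variants of MOBP were uneven among the control libraries too. MOBP variant X2 had 51.6 and 200.5 CPM in the deprived libraries, but 284 CPM in Control-307 and 0 in both Control-317 and Control-331. Within the control group this variant thus ranged from the second-largest share of the gene, 32.8% in Control-307, to none listed. The unnumbered MOBP transcript had 28.1 and 25.2 CPM in the deprived libraries against 48.0, 69.5 and 83.5 CPM in the control libraries. It was lower without overlap, with a log2 fold change of -1.33 and an SE of 0.32 (edgeR adjusted p = 0.564, DESeq2 adjusted p = 0.0245). MOBP variant X1 was also lower without overlap. It had 0 and 4.58 CPM in the deprived libraries against 98.7, 17.0 and 11.0 CPM in the control libraries. The log2 fold change of X1 was -4.20 with an SE of 2.04 (edgeR adjusted p = 0.806, DESeq2 adjusted p = 0.268). Variant X2 was at 0.42, X3 at -0.29 and X4 at -0.72.

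Other genes of the oligodendrocyte were read from lists. Of 36 tested genes of mature oligodendrocytes outside the 9, 33 were on the lower side, with a median log2 fold change of -0.55. In edgeR, 10 were lower and 0 higher at an unadjusted p under 0.05, where 4.05% and 5.65% of all genes were. The 4 most abundant were NFASC, whose glial form anchors the paranode, CNTN2, an adhesion protein next to it, SLC44A1, a choline transporter, and PLEKHB1, a membrane-binding protein, with log2 fold changes of -0.15, -0.45, -0.57 and -0.94. PLEKHB1 had 419 and 600 CPM in the deprived libraries against 1007, 964 and 971 CPM in the control libraries (edgeR adjusted p = 0.386). All 10 tested enzymes of myelin lipid synthesis were on the lower side, with a median of -0.50. UGT8, which makes galactocerebroside, had a log2 fold change of -0.28, and CERS2, which makes ceramides with very long chains, had -0.73. ELOVL1, which lengthens fatty acids, and DEGS1, a ceramide desaturase, had log2 fold changes of -0.63 and -0.37. No gene of either list passed edgeR's test over all genes, and DESeq2 called 2 of the first list and 0 of the second. Of all genes, DESeq2 called 0.625% lower and 1.93% higher. Without Control-317 edgeR called 5 of the 36 as lower, namely APOD, DBNDD2, LPAR1, OMG and PLEKHB1, and 1 of the 10, ASPA, an enzyme that frees acetate for lipid synthesis, where 3.68% of all genes were called lower. PLEKHB1 then had a log2 fold change of -0.96 (edgeR adjusted p = 0.0471) and SLC44A1 of -0.69, but CNTN2 was at -0.003 and NFASC at 0.10. The medians of the lists were -0.60 and -0.38 in that fit. Deprivated-316 was the lowest library for 27 of the 36 and for 9 of the 10, as it was for the myelin genes, and the medians were -0.27 and -0.28 without Deprivated-316 and -0.96 and -0.82 without Deprivated-326. By the division that matched the printed means, the medians of these lists were on the other side of 0, at 0.13 and 0.14.

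The lists of oligodendrocyte transcription factors and of precursors and differentiating cells had medians nearer to 0, with single genes on both sides. Among 12 tested transcription factors of oligodendrocytes, 9 were on the lower side and the median was -0.31. MYRF, which switches on myelin genes, had 91.0 and 121 CPM in the deprived libraries against 125, 188 and 146 CPM in the control libraries (log2 fold change -0.53, edgeR adjusted p = 0.581). SOX10, which acts throughout the lineage, had 91.4 and 147 CPM in the deprived libraries against 117, 171 and 131 CPM in the control libraries (log2 fold change -0.22, edgeR adjusted p = 0.85). YY1, a widely expressed factor, and CHD7, a chromatin remodeller, were near 0 with log2 fold changes of 0.09 and 0.06. Of 17 genes of precursors and differentiating cells 12 were on the lower side, with a median of -0.17. The most abundant of them were CNTN1, an adhesion protein (log2 fold change 0.42), PTPRZ1, a receptor phosphatase (-0.42), FYN, a kinase that acts on MBP translation (-0.08), and ITPR2, a calcium channel (-0.20). No gene of these lists passed edgeR's test with all libraries. Without Control-317 the medians were -0.33 and -0.05, and edgeR called 0 of the 12 and 2 of the 17. These were BCAS1, a protein of newly formed oligodendrocytes, as lower and TNR, a matrix protein, as higher. In that fit 3.68% of all genes were called lower and 6.43% higher. By the division that matched the printed means the medians were 0.23 and 0.05. The difference between these lists and the 9 myelin genes was not tested.

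**Figure D5:**
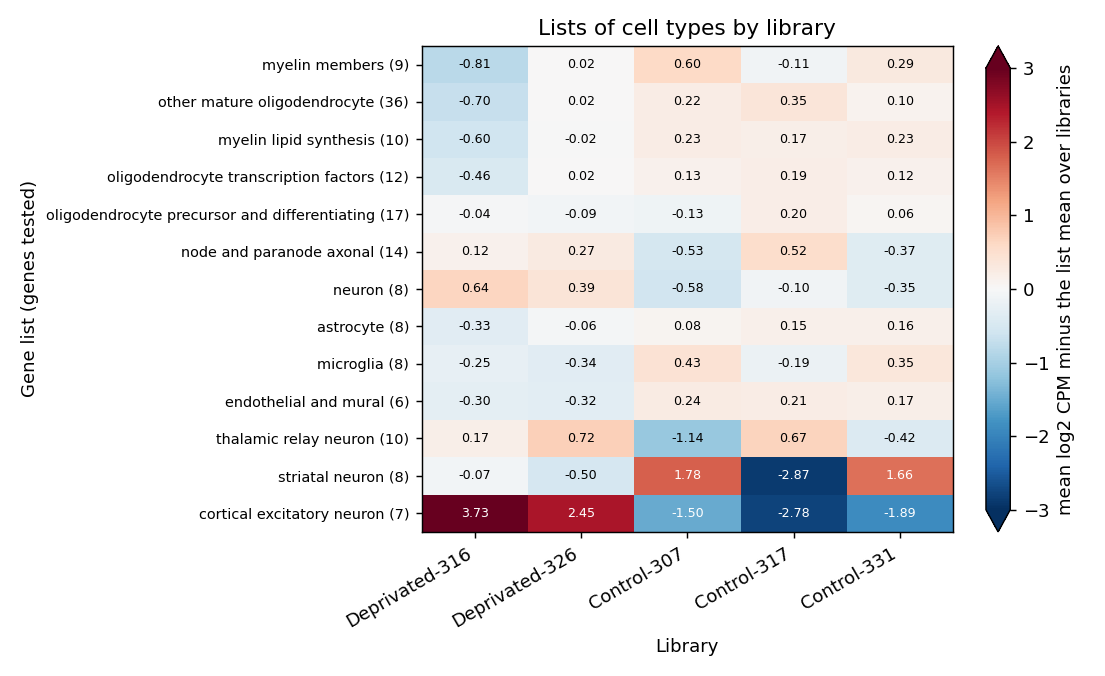
Mean log2 CPM of the 9 myelin genes and of the other gene lists in each library, after subtracting the mean of the list over the 5 libraries (numbers in the cells). The myelin genes are at -0.81 in Deprivated-316 and 0.02 in Deprivated-326, and at 0.60, -0.11 and 0.29 in Control-307, in Control-317 and in Control-331.

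Genes of the axonal side of myelin were mixed. Of 14 tested genes of the node, the paranode and axonal neurofilaments, 9 were on the higher side, and the median of the 14 was 0.25. NEFL, a neurofilament subunit, had 836 and 1191 CPM in the deprived libraries against 780, 1952 and 656 CPM in the control libraries, and KCNA2, a potassium channel beside the paranode, had 797 and 907 CPM in the deprived libraries against 853, 1431 and 802 CPM in the control libraries. Control-317 was the highest library for both, and their log2 fold changes were -0.16 and -0.27. NRCAM, an adhesion protein of the node, and CNTNAP2, which gathers potassium channels beside it, had log2 fold changes of 0.57 and 0.35. None passed edgeR's test with all libraries, and without Control-317 it called 4 of the 14, CNTNAP1, NRCAM, SCN8A and SPTBN4, all higher, where 6.43% of all genes were called higher.

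Markers of other cells differed in level between the libraries as well. The neuronal list had its median at 0.77, with 7 of 8 genes on the higher side, and at 1.07 without Control-317. The 4 most abundant were SYT1, UCHL1, GAP43 and SNAP25, with log2 fold changes of 0.98, -0.28, 0.06 and 1.22. SNAP25, a protein of vesicle fusion, had 408 and 291 CPM in the deprived libraries against 66.1, 273 and 110 CPM in the control libraries. All 7 tested markers of cortical excitatory neurons were higher without overlap (15.2% of all genes), and their mean log2 CPM was 6.01 and 4.74 in the deprived libraries, against -0.50 to 0.78 in the control libraries. The striatal list averaged 6.88 and 6.45 log2 CPM in the deprived libraries against 8.73, 4.08 and 8.61 in the control libraries. The list of thalamic relay neurons had its median at 0.06, and at 1.09 without Control-317. Of the other glia and vessel lists, 6 of 8 astrocyte, 7 of 8 microglial and 6 of 6 endothelial and mural markers were on the lower side. Their medians were -0.28, -0.60 and -0.52, and -0.20, -0.80 and -0.53 without Control-317. The abundant astrocyte markers SLC1A3 and SLC1A2 were on the higher side, with log2 fold changes of 0.27 and 0.19. Without Control-317 these were 0.01 and 0.51. In the fit without Control-317, edgeR called 8 of 8 striatal, 2 of 8 microglial and 1 of 6 endothelial and mural markers lower. It called 5 of 7 cortical, 4 of 8 neuronal and 1 of 10 relay markers higher, and 0 of 8 astrocyte markers. Of all genes 3.68% were called lower and 6.43% higher there. The part of these markers in the values of the myelin genes was not tested.

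The 10 genes closest in pattern to the 9 myelin genes were mostly outside the oligodendrocyte lists. Likeness was the root mean square difference between the 5 centred log2 CPM values of a gene and the mean centred values of the 9 genes. The closest was PPP1R14A, an inhibitor of myosin phosphatase, at 0.03, with 6.84 and 11.6 CPM in the deprived libraries against 18.2, 11.0 and 14.7 CPM in the control libraries. It was followed by NUDT12, SEPT10, the adaptor GAB1, SEPT4, ST6GALNAC3, COMMD8, PRKD3, SLC44A1 and PPP2R3C at 0.05 to 0.09. PPP1R14A and SLC44A1 were on the list of mature oligodendrocyte genes, and the others were on none of the lists. Of the 9 themselves, MAL, OPALIN, CLDN11 and ERMN were at 0.11 to 0.17 from their mean pattern, CNP, MOG and MAG at 0.29 to 0.39, and MBP and MOBP at 0.50 and 0.56.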

How the data were processed

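Total RNA of the dLGN was enriched for poly(A) RNA and sequenced by the authors. Reads were filtered with fastp 0.18.0, aligned to the Macaca_fascicularis_5.0 assembly (HISAT2 in the methods; the processing notes list Bowtie2 2.2.8) and quantified per RefSeq transcript with StringTie 1.3.4. The authors deposited estimated counts, which are not whole numbers, and FPKM, scaled by the authors to transcript length and library depth. No genome coordinates or sequences were used here.

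For each symbol, rounded estimated counts were added up. The main comparison of deprived with control libraries ran over the whole table in edgeR (version 4.0.16, under R 4.3.3) with its quasi-likelihood F test. Scaling was by TMM, and low genes were removed with filterByExpr, leaving 14319 genes and 33469 transcripts. P-values were adjusted by Benjamini-Hochberg over all genes or transcripts and called under 0.05. CPM refer to TMM-scaled totals, and a prior count of 2 was added for log2 CPM. SE is the log2 fold change over the root of its F value. Shares were compared by exact permutation tests (scipy 1.17.1). The scripts were tested on simulated data. No replicate number is shared between the groups.

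As alternatives, DESeq2 1.42.0, the exact test of edgeR, limma 3.58.1 (FPKM on a log2 scale after adding 1 or 0.1), RLE and upper-quartile factors, no filter, each library left out, and the other division of the libraries were run. Named genes were the 9 members, their transcripts, the 4 most abundant tested genes of a list and the 10 genes nearest in pattern; lists with little bearing on myelin are given by counts and an example. The members, lists and the other division were chosen with earlier results of these data known.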

Additional observations from a re-analysis of the deposited data

How the results depend on the processing

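With all 5 libraries by the labels, no alternative called any of the 9 myelin genes. Changes of test moved the count of all genes called against 0 in the quasi-likelihood fit: 226 in edgeR's exact test, 380 in DESeq2 and 1 in limma on log2(FPKM + 1), and for transcripts 464 and 1063 in the exact test and DESeq2. Leaving out a library gave 0 to 1416 genes, with 1416 reached without Control-317, and 0 transcripts throughout. DESeq2 without Control-317, added after the data were seen, called 2308 genes. The median log2 fold change of the 9 genes ran from -1.19 (without Deprivated-326) to -0.36 (without Deprivated-316), and was -0.30 by the division of the printed means; the cause was not tested. MOBP ranged from -1.24 to 0.45 with a library left out: it turned to 0.06 without Deprivated-316 and 0.45 without Control-307. By the division of the printed means MOG, MAG, CNP and CLDN11 turned to 0.25, 0.44, 0.18 and 0.038. Of the 126 values of single myelin genes under the alternatives, these 6 changed sign and 6 newly passed, all in DESeq2 without Control-317. The share of all counts from the 9 genes differed by -0.22 percentage points, and by -0.31 to -0.13 with a library left out. No paired analysis was possible because the animals of both groups share no replicate number.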
